A study of Mus musculus with 2 samples.

Results

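The cells described here came from the mouse cochlea and shared RNA of Ucma, Frzb, Gata3, Epyc and Aqp4. A barcode was kept with at least 300 detected genes and at most 20% of its UMIs (unique molecular identifiers, each standing for a captured transcript) from mitochondrial genes. A kept cell was a member when at least 3 of those 5 genes had a UMI and when it held more UMIs of Ucma than of Fabp7. The rule found 54 members among 1975 kept cells of 2330 barcodes, and they are called Ucma cells below. Library 1 held 41 of 1331 kept cells (3.08%, exact Clopper-Pearson 95% interval 2.22% to 4.16%), and library 2 held 13 of 644 (2.02%, 1.08% to 3.43%). These intervals cover counting error only. The members were thus chosen by their measured UMIs of Ucma, Frzb, Gata3, Epyc, Aqp4 and Fabp7, so the levels of these genes are given as a description with no test.

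The series surveyed gene expression in the cochlea of wild-type C57BL/6 mice at 20 days of age by droplet single-cell RNA sequencing. Both libraries belong to 1 untreated group, with cells of whole cochleae freed by trypsin from 5 to 8 mice. The labels do not say that the libraries came from separate animals. The p-values below measure the spread left between these libraries once their shared difference is fitted, and this spread may be technical. It was estimated over 6 classes together (residual degrees of freedom 5) and moderated with the spread of other genes (median prior degrees of freedom 85.8). Library 1 held 20212520 UMIs in 1610 barcodes and library 2 held 7094752 UMIs in 720 barcodes.

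The cochlear duct is lined by an epithelium in which sensory hair cells and their supporting cells are flanked by non-sensory cells. These flanking cells are coupled by connexin gap junctions, face the potassium-rich endolymph and take part in the recycling of potassium and water. Ucma encodes a secreted vitamin K-dependent Gla protein best known from cartilage. Frzb is a secreted antagonist of Wnt ligands, Epyc (epiphycan) a small leucine-rich proteoglycan, and Aqp4 a water channel. Gata3 is a zinc finger transcription factor that the inner ear needs for its development. Isl1, a LIM homeodomain transcription factor listed as a further marker, and Fabp7, a fatty acid-binding protein, were read beside them. In GENCODE M21 (GRCm38) the protein-coding gene Ucma lies at chr2:4976122-4985748 on the plus strand, Frzb at chr2:80411970-80447625 and Gata3 at chr2:9857078-9890034 on the minus strand, and Epyc at chr10:97644068-97682454 on the plus strand. Isl1 lies at chr13:116298281-116309689 and Bmp4, which recurs below, at chr14:46383520-46390669, both on the minus strand.

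Promoters of Ucma, Frzb and Epyc, rule genes among the 15 with the largest ratios to all other cells, are shown because Gata3, which binds GATA sites, was read in 39 of 41 members of library 1 and in 13 of 13 of library 2. Each line gives the 250 bases before the RefSeq start (GRCm38.p6), 5′ to 3′ on the gene's own strand, with AGATAA or TGATAA and their reverse complements TTATCT and TTATCA in capitals.
Ucma (chr2:4975872-4976121, plus strand): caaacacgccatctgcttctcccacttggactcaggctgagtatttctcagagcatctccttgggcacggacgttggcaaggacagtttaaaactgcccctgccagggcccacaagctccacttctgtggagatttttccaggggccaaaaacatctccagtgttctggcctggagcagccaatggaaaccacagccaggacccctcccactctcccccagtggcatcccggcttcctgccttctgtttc
Frzb (chr2:80447397-80447646, minus strand): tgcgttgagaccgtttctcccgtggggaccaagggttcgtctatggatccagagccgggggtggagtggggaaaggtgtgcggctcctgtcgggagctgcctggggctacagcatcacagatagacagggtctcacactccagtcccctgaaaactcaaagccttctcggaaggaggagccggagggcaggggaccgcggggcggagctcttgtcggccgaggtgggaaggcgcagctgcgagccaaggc
Epyc (chr10:97643818-97644067, plus strand): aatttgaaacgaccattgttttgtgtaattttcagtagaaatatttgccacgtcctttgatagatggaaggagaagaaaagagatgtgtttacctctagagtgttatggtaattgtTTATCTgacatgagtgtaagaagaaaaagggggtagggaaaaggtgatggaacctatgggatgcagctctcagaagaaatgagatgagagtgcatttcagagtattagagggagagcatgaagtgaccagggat
Only AGATAA and TGATAA were searched. Other letters around GATA stayed unmarked, such as AGATAG in the Frzb window and TGATAG in the Epyc window. The Epyc window held 1 of the searched motifs, and the Ucma and Frzb windows held 0. Either motif stood in 16.6% of 32851 promoter windows of the same length (AGATAA in 9.99%, TGATAA in 7.94%). RefSeq lists a second Epyc start, whose window held 1 match of each motif and is not printed. The Frzb window is set by the RefSeq start, and the GENCODE start given above lies within it. A match is a description of the letters and says nothing of binding in these cells.

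Members differed widely from each other in the genes that chose them. In library 1 the UMIs of Ucma per cell ran from 1 through a median of 4 to 333, and in library 2 from 1 through a median of 1 to 14. Exactly 1 Ucma UMI was found in 18 of 41 members of library 1 and in 7 of 13 of library 2. A single UMI is weak evidence here, since among the 369 cells of library 1 with over 50% haemoglobin UMIs, which should lack the rule genes, Epyc was seen in 47.2%, Ucma in 7.32%, Gata3 in 6.78%, Frzb in 1.63% and Aqp4 in 0.813%. In the 36 such cells of library 2 Epyc was seen in 11.1% and Ucma in 0%. The Ucma sum of library 1 was 1014 UMIs, of which a single cell gave 32.8%. The top cell of library 2 gave 35.9% of 39. Epyc was the deepest of the rule genes, with a median of 95 UMIs per cell in library 1 (range 0 to 400) and 33 in library 2 (5 to 222). Gata3 had a median of 12 (0 to 39) and 9 (1 to 23). Frzb and Aqp4 were patchy, with Frzb in 30 of 41 and 5 of 13 members and Aqp4 in 22 of 41 and 7 of 13. All 5 genes were seen in 19 members of library 1 and 3 of library 2, and only 3 of them in 11 and 4.

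**Figure D1:**
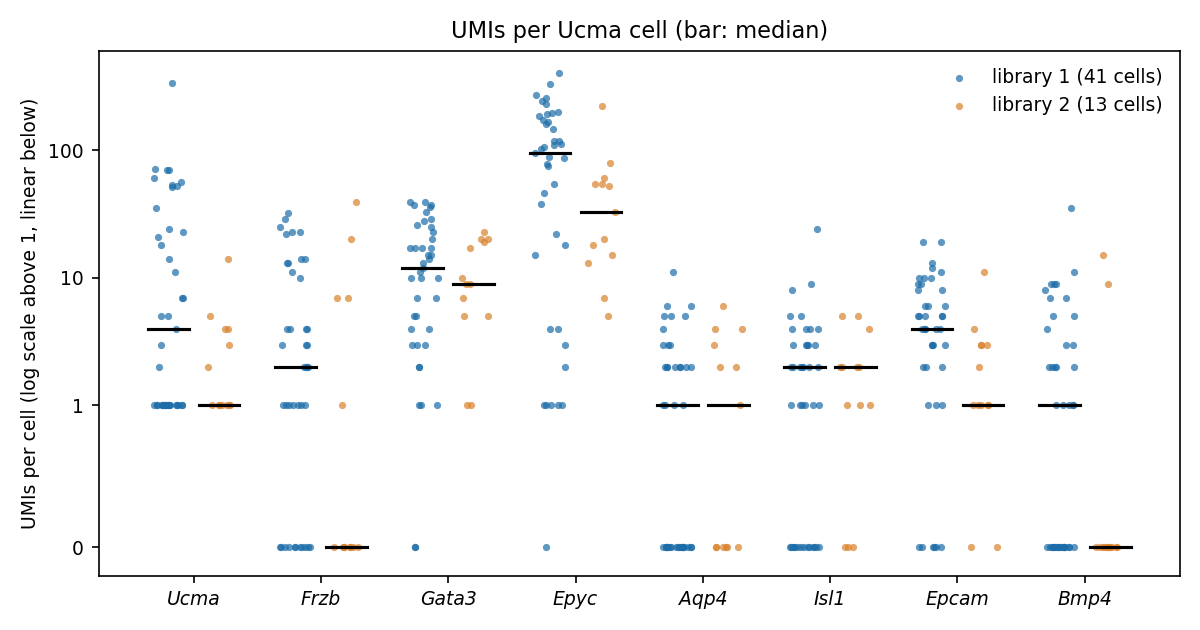
UMIs per cell in the 54 Ucma cells for the 5 rule genes, Isl1, Epcam and Bmp4, with 1 point per cell, blue for library 1 and orange for library 2, and black bars for medians. The axis is logarithmic above 1 and linear below. Epyc and Gata3 sit high in most members, while many members lie at 1 UMI for Ucma and at 0 for Frzb, Aqp4 and Bmp4.

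Around the threshold, 37 kept cells of library 1 and 9 of library 2 had only 2 of the 5 genes with Ucma above Fabp7. Their median Epyc count was 1 UMI in both libraries, and Epcam, the epithelial adhesion molecule, was seen in 4 of 37 and 4 of 9. Members with exactly 3 genes had a median of 1 Epyc UMI in library 1 and 10 in library 2, and Epcam in 5 of 11 and 4 of 4. In library 1 the cells just inside the threshold had the same median Epyc as those just outside.

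In library 1 the members with 10 or more Ucma UMIs stood apart from the rest. Those 16 cells held 13800 CPM of Epyc (UMIs of a gene per 1000000 UMIs of the summed cells, exact Poisson 95% interval 13300 to 14300), against 2540 CPM in the 7 cells with 2 to 9 Ucma UMIs and 3390 CPM in the 18 cells with 1. Frzb, at 984 CPM, was seen in 16 of 16 of them, against 55.0 and 144 CPM in the other groups. Bmp4, a secreted ligand of the BMP pathway made on the outer side of the developing cochlear duct, read 538 CPM (445 to 645) in 15 of 16 cells, against 36.7 and 26.5 CPM. Tdrd12, which encodes a Tudor domain protein of the piRNA pathway, followed with 1180 CPM against 82.5 and 139. Aqp4 and Isl1 had overlapping intervals across the 3 groups, with Isl1 at 143, 138 and 165 CPM from the highest to the lowest Ucma group. Sox2, a transcription factor of supporting cells, read 18.4 CPM (5.01 to 47.1, 4 UMIs) in the Ucma-high cells. It read 91.7 (44.0 to 169) and 70.7 CPM (45.3 to 105) in the others, and the interval of the Ucma-high cells overlaps both of these. Coch, the cochlin gene abundant in fibrocytes, read 152, 3350 and 2020 CPM, but 1 cell gave 346 of the 365 UMIs of the middle group and 1 cell 529 of the 684 of the lowest, and the median was 2, 4 and 3 UMIs per cell. These groups were formed after the counts were seen and by a gene of the rule, so they carry no test. Library 2 held only 1 cell with 10 or more Ucma UMIs, and it had 9 UMIs of Bmp4, 21 of Tdrd12 and 0 of Epcam. Its Epyc, at 4190 CPM, was not above the 7210 CPM of the 5 cells of library 2 with 2 to 9 Ucma UMIs.

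**Figure D2:**
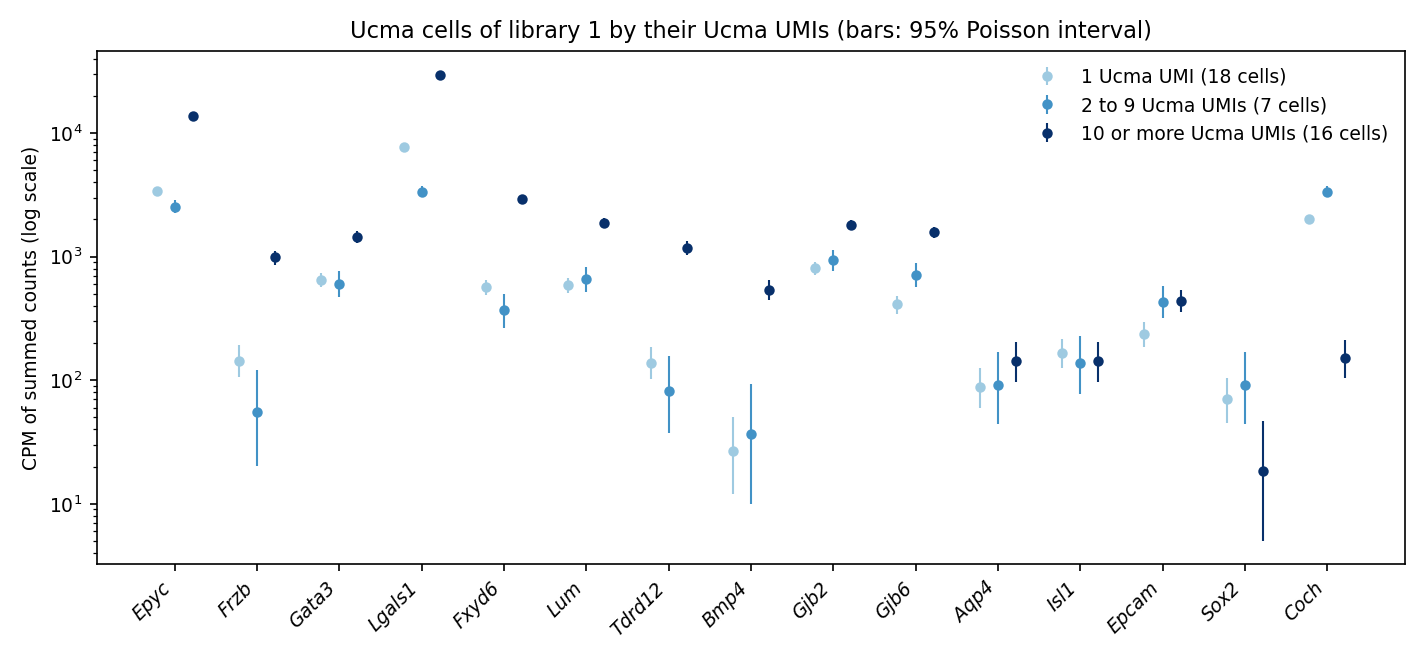
Summed CPM (log axis) of 15 genes in the library 1 members split by their Ucma UMIs, with exact 95% Poisson intervals. The 16 cells with 10 or more Ucma UMIs lie above the other groups for Epyc, Frzb, Lgals1, Tdrd12 and Bmp4, while the intervals for Aqp4 and Isl1 overlap. In each of the other groups 1 cell gave most of the Coch UMIs.

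The label of cochlear epithelium was set against marker lists. At least 3 of 18 general epithelial markers were found in 38 of 41 members of library 1 and 13 of 13 of library 2, against 33 of 163 and 9 of 66 cells gated as fibrocytes. Epcam was seen in 35 of 41 and 11 of 13 members, at 333 CPM (222 UMIs) and 287 CPM (31 UMIs). The tight junction genes Cldn9 (318 and 42 UMIs) and Cldn3 (108 and 23 UMIs) were read too. Gjb2 and Gjb6, which encode the main cochlear connexins, had 1150 and 963 CPM and 840 and 769 CPM. In the haemoglobin-rich cells Epcam was seen in 27 of 369 cells of library 1 and 1 of 36 of library 2. Their median depth was 10415 and 12833.5 UMIs, against 12630 and 7110 in the members. At a fixed depth of 2000 UMIs per cell Epcam was seen in 46.3% of members of library 1 (exact 95% interval of 30.7% to 62.6%) and 53.8% of library 2, against 1.36% and 0% of those haemoglobin-rich cells. A median of 89.3% and 92.4% of the UMIs of the latter were haemoglobin. Few of their 2000 UMIs were thus of other genes, and their shares are low partly for that reason. Because Ucma is known from cartilage, chondrocyte markers were read as well. Acan had 1 and 0 UMIs, Matn1 had 4 and 0, Matn3 and Col10a1 had 0 in both libraries, and Col2a1 had 13 and 0. Others of the 11 listed were present, with Col9a1 at 73 and 9 UMIs, Col9a3 at 60 and 11, Col11a1 at 81 and 22 and Hapln1 at 20 and 0. The list summed to 1140 and 871 CPM, against 585 and 375 CPM in Fabp7 cells and 353 and 83.8 CPM in fibrocytes. Also known from cartilage are Mia (1660 and 1360 CPM) and chondromodulin (a list gene under its older symbol Lect1, 763 and 482 CPM, in 33 of 41 and 10 of 13 members). The defining markers of stria marginal cells, Kcne1, Kcnq1 and Bsnd, had 0 UMIs in library 1 and 1, 1 and 0 in library 2.

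Some members held RNA known from other cell types, and this touches every sum below. Whether they carried foreign RNA or were themselves cells of those types that met the rule was not tested. The gates of the other classes were met by 15 members, 14 of them in library 1, with 10 meeting that of Fibin cells, 4 fibrocytes, 2 hair cells and 2 fibroblasts. In 3 members of library 1, 67.9% to 82.1% of UMIs were haemoglobin, and the erythroid list read 42500 CPM in library 1, with 41.1% of it from 1 cell, against 2080 CPM in library 2. The neuronal list had 644 UMIs in library 1, 96.6% of them in 1 cell, and 7 UMIs in library 2. The fibrocyte list had 4060 and 5140 CPM, against 7830 and 5620 CPM in fibrocytes, and in library 2 a single cell gave 89.5% of it. Otof, the hair cell otoferlin gene, had 72 UMIs in 4 members of library 1. Slc26a4, the pendrin anion exchanger of another flanking cell type, had 93 UMIs in 4 members of library 2 and 1 UMI in library 1. In library 2 it reached 10 or more UMIs in 3 members and in 5 of the 631 other kept cells. The comparisons were also fitted without mixed cells, that is without members that met another gate and without cells of any class over 10% haemoglobin. The part of the remaining foreign RNA was not tested.

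**Figure D3:**
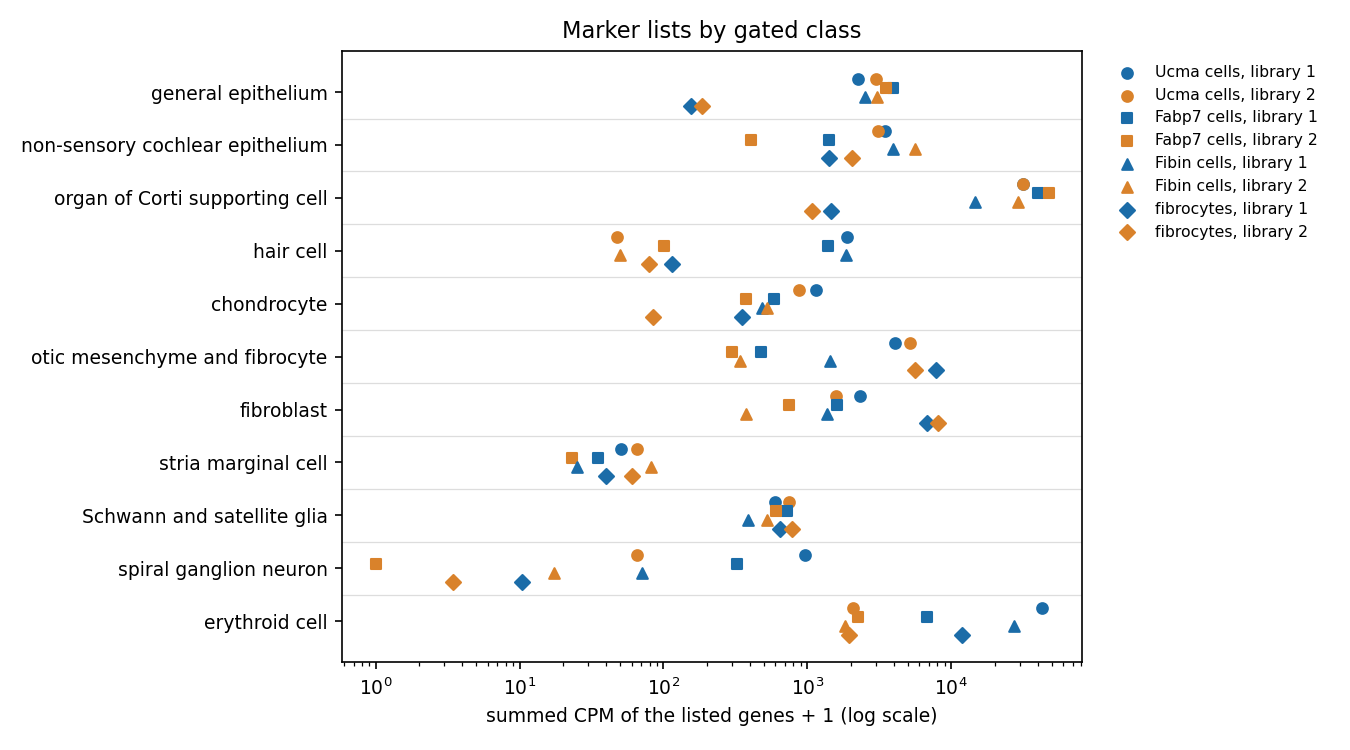
Summed CPM plus 1 (log axis) of 11 marker lists in the Ucma cells (circles), Fabp7 cells (squares), Fibin cells (triangles) and fibrocytes (diamonds), blue for library 1 and orange for library 2. The 3 epithelial classes lie together on the general epithelium list, above fibrocytes, and the Ucma cells lie near fibrocytes on the otic mesenchyme and fibrocyte list.

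The members were set against 3 other gated classes. Fabp7 cells had a UMI of at least 3 of Fabp7, Fzd9, Gata3, Epyc and Aqp4 and more Fabp7 than Ucma (66 and 6 cells). Fibin cells had at least 2 of Fibin, Otol1 and Lfng (71 and 9), and fibrocytes had both Car3 and Kcnk2 (163 and 66). Of the rule genes, Ucma, Frzb and Epyc were higher in the members than in all of these classes in both libraries. Ucma read 1520 and 361 CPM in the members, 12.6 and 0 CPM in Fabp7 cells, 6.59 and 0 CPM in Fibin cells and 6.79 and 7.32 CPM in fibrocytes. Frzb read 404 and 686 CPM in the members and 37.8 and 55.2 CPM in Fabp7 cells. Epyc read 6660 and 5860 CPM in the members, 5270 and 5370 CPM in Fabp7 cells and 812 and 1180 CPM in Fibin cells. Its gap to Fabp7 cells was thus small beside those of Ucma and Frzb. Gata3 read 898 and 1350 CPM in the members, 1330 and 1500 CPM in Fabp7 cells and 667 and 1040 CPM in Fibin cells, so within each library the members lay below Fabp7 cells and above Fibin cells. In fibrocytes Gata3 read 3.88 and 1.63 CPM. Aqp4 was higher in Fabp7 cells in each library (240 and 419 CPM) than in the members (107 and 204 CPM). Isl1, which was in no gate, read 153 and 232 CPM in the members, 220 and 254 CPM in Fabp7 cells, 119 and 260 CPM in Fibin cells, and 0.323 and 0 CPM in fibrocytes.

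**Figure D4:**
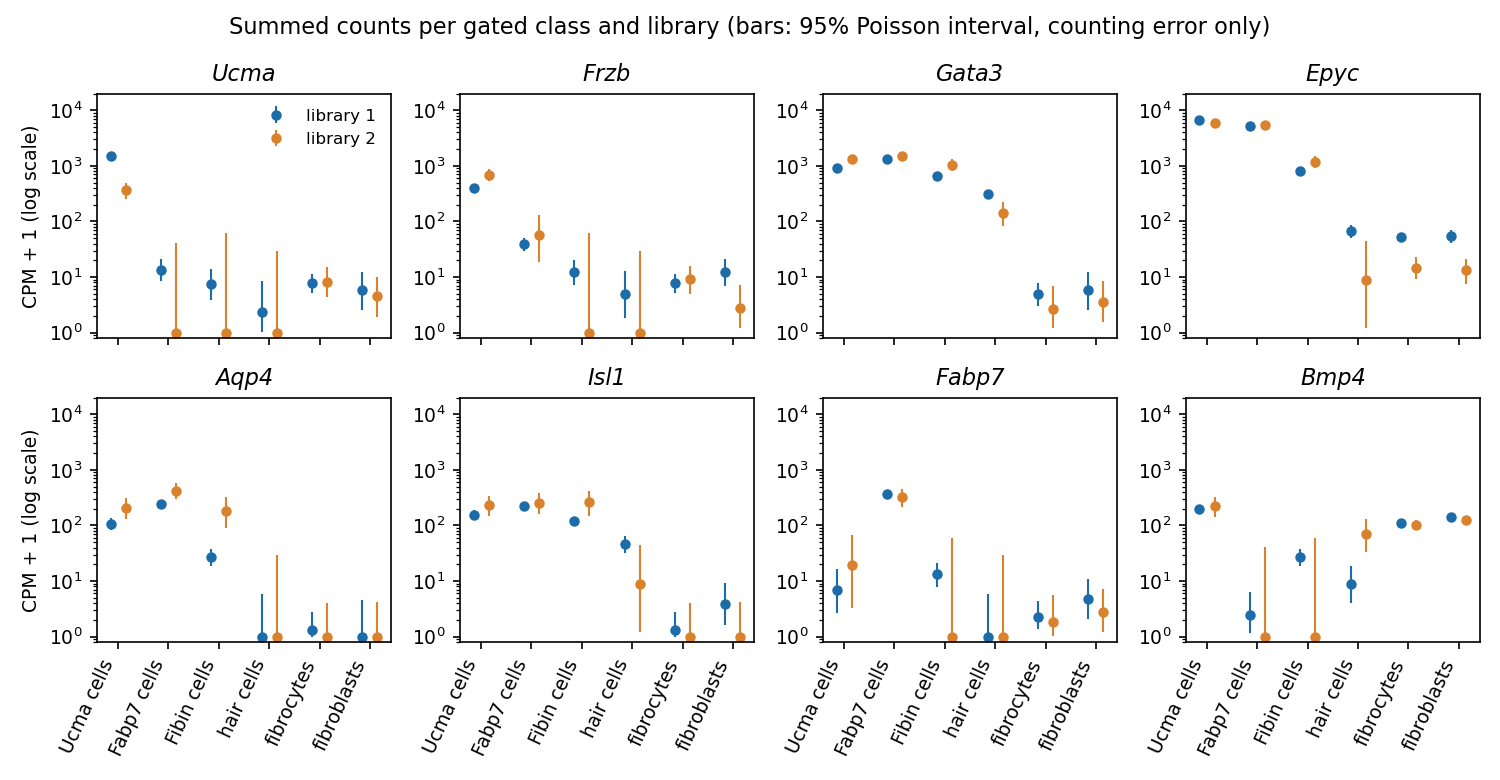
CPM plus 1 (log axis) of the 5 rule genes, Isl1, Fabp7 and Bmp4 in the sums of 6 gated classes, with 95% Poisson intervals, blue for library 1 and orange for library 2. Ucma and Frzb are highest in the Ucma cells, Gata3 and Isl1 are highest in the 3 epithelial classes and lower in hair cells, and Bmp4 is read in Ucma cells, fibrocytes and fibroblasts but hardly in Fabp7 cells.

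Set beside all other kept cells, the 15 genes with the largest ratios were Frzb, Tdrd12, Ucma, Lgals1, Epyc, Nat8l, Prss36, Wfdc2, Padi1, Lum, Fbxo2, Mia, Map1b, Trnp1 and S100a1. A ratio of at least 2-fold in both libraries was reached by 390 of 27998 genes (1.39%). Lgals1, the galectin-1 gene, read 14000 and 10300 CPM in the members and 891 and 752 CPM in the other cells. Lum, which encodes lumican, a proteoglycan of the same family as Epyc, read 1020 and 1110 CPM against 136 and 28.8 CPM. Fabp7 cells held it too, at 972 and 585 CPM (log2 difference 0.57, SE 0.34, adjusted p = 0.71). Nat8l, the enzyme that makes N-acetylaspartate, read 387 and 352 CPM against 27.2 and 11.8 CPM. S100a1, a calcium-binding protein gene also abundant in supporting cells, read 30700 and 31500 CPM against 5180 and 2050 CPM, and 38900 and 46800 CPM in Fabp7 cells. These cells were picked out of the cells they are set against, so no test was made.

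The gate of Fabp7 cells shares Gata3, Epyc and Aqp4 with the rule of the members. In the comparison with Fabp7 cells, Bmp4, Fxyd6 and Tdrd12 were higher in the Ucma cells, and Pcdh17, Kif5b and the Notch target gene Hey1 were lower. Bmp4 had 130 and 24 UMIs in the Ucma cells of library 1 and library 2, and 2 and 0 UMIs in Fabp7 cells. In the members it came from 23 of 41 cells and from 2 of 13. The pooled ratio was 143-fold (exact 95% counting interval 39.0 to 1190), with an adjusted p of 4e-08 by edgeR's quasi-likelihood test with Benjamini-Hochberg adjustment, the method behind every adjusted p here. Bmp4 was also read in fibrocytes (108 and 103 CPM), and in library 1 the 16 members with 10 or more Ucma UMIs carried 117 of its 130 UMIs.

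Among 10702 tested genes 86 were higher (0.804%) and 66 lower (0.617%) in the Ucma cells than in Fabp7 cells, 1.42% in either direction. The sign was the same in both libraries for 79 of the 86 and 64 of the 66. Fxyd6, a regulator of the sodium pump, had 863 and 281 UMIs against 553 and 32, a log2 fold change of 2.30 (SE 0.34, adjusted p = 6.9e-06), and it was higher in both libraries. In library 1 the 16 members with 10 or more Ucma UMIs carried 631 of the 863, at 2900 CPM. The members with 2 to 9 and with 1 Ucma UMI read 367 and 566 CPM there. In library 2 the members with 1 Ucma UMI read 3200 CPM. Tdrd12 had 313 and 59 UMIs against 118 and 14 (log2 2.23, SE 0.36, adjusted p = 1.6e-05), and the same 16 members of library 1 carried 257 of the 313. The 10 largest rises also held G0s2, an inhibitor of triglyceride breakdown (log2 2.39, SE 0.46), Mgll, the monoglyceride lipase (1.99, SE 0.45), and the receptor gene Vldlr (2.05, SE 0.43). Apoc1 (log2 3.69) rose as well, but 60.0% of its 230 UMIs in library 1 came from 1 cell. Tcap had 36 of its 46 UMIs in library 2, and 88.9% of those from 1 cell. The calcium channel gene Itpr1 (log2 2.05, SE 0.46) and Hint1 (2.18, SE 0.48) completed the list.

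The genes lower than in Fabp7 cells began with Alox12e, a lipoxygenase gene, with 5 and 1 UMIs against 168 and 17 (log2 -4.06, SE 0.56, adjusted p = 2.6e-07). Pcdh17, a protocadherin, had 9 and 2 UMIs against 325 and 20 (-3.98, SE 0.48). Krt18, which encodes an intermediate filament protein of simple epithelia, had 12 and 16 UMIs against 460 and 39 (-2.94, SE 0.52, adjusted p = 0.0023), and in library 1 all 12 Krt18 UMIs came from the members with 1 Ucma UMI. Its partner Krt8 was also lower (-2.31, SE 0.52, adjusted p = 0.0051). Kif5b, a kinesin motor gene, had 194 and 14 UMIs against 1646 and 103 (-2.36, SE 0.35). Fam159b, Hey2, Bex4, St3gal4, BC048546 and Rassf9 had log2 fold changes from -3.01 to -2.43. Alox12e, Pcdh17, Krt18, Kif5b and these 6 genes were each lower in both libraries.

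**Figure D5:**
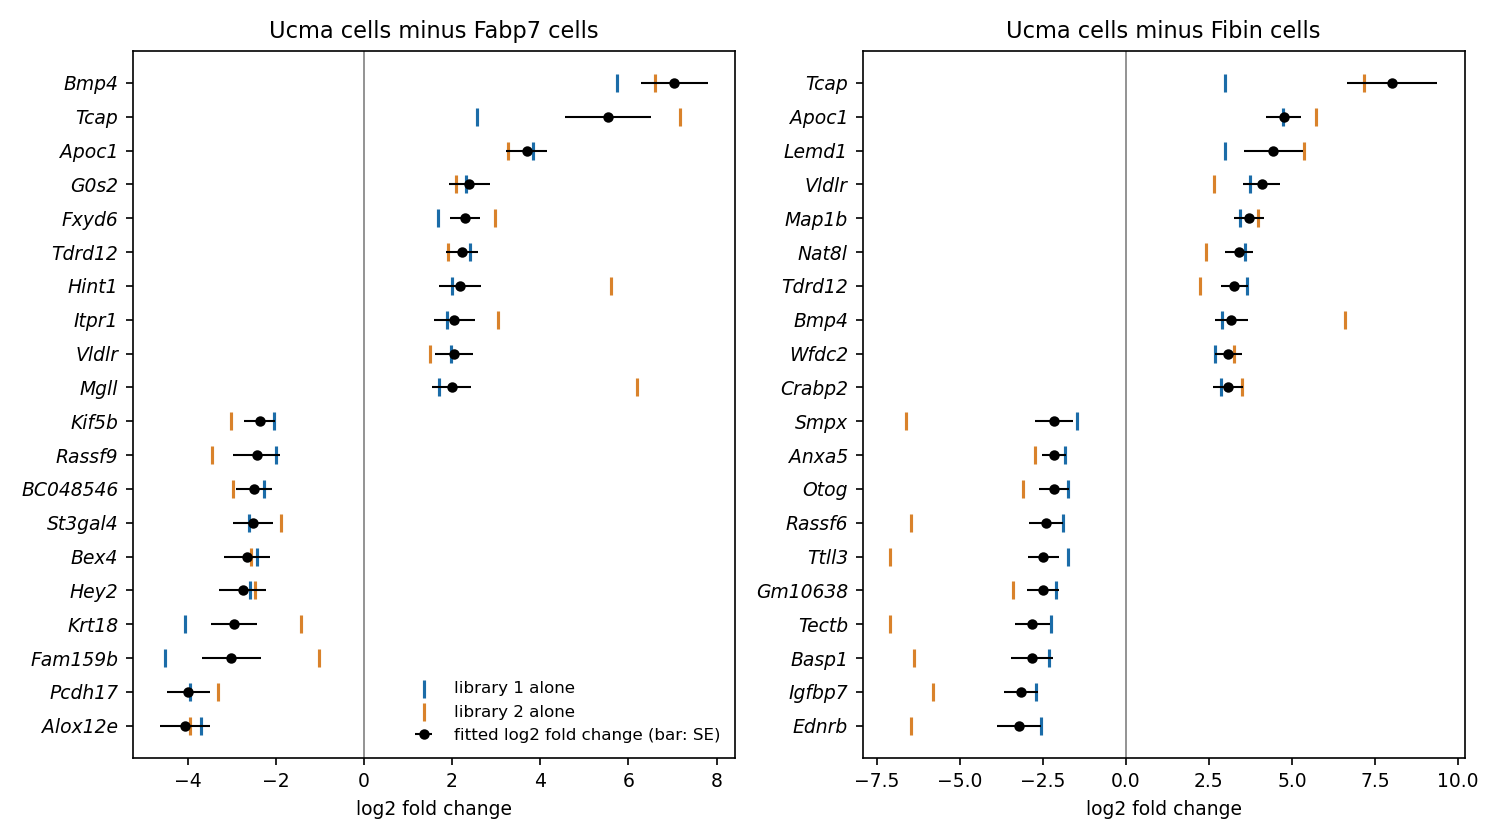
Fitted log2 fold changes (black points, bars for SE) of the 10 genes with the largest change in each direction, Ucma cells minus Fabp7 cells on the left and Ucma cells minus Fibin cells on the right. Coloured ticks give each library alone, and ticks beyond 5 belong to genes with 0 to 2 UMIs in a class of that library, whose size depends on the added count of 2. All ticks lie on the side of their fitted value.

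The list counts against Fabp7 cells were small, beside a median log2 fold change of 0 over all tested genes. Of 11 tested Notch pathway genes 3 were lower, the transcription factor genes Hey1 (67 and 11 UMIs against 574 and 38, log2 -2.04, adjusted p = 3e-04) and Hey2 and the receptor Notch3 (-3.38, adjusted p = 0.032), and 0 were higher (list median -1.02). Among 20 tested transcription factors of otic epithelium only Sox2 passed (38 and 9 UMIs against 330 and 18, log2 -1.81, SE 0.41, adjusted p = 0.0052). Of 23 genes of water and potassium handling Fxyd6 was higher, and the water channel Aqp5 (-3.13) and the pump regulator Fxyd2 (-2.10) were lower. Fxyd2 had 3 UMIs in each class of library 2 and turned to 2.59 when at least 2 of 5 rule genes were asked for. Of 17 epithelial genes 3 were lower, Krt8, Krt18 and Cldn6, the last with 0 UMIs in the members against 29 and 1. Bmp4 was the only 1 of 21 BMP and activin genes that passed. Fgf9, a secreted growth factor, was the only 1 of 15 FGF genes (log2 1.73, adjusted p = 0.019). Car12, a carbonic anhydrase, passed on 18 and 5 UMIs in 4 and 3 members (3.63, adjusted p = 0.011), and Lect1 among 6 chondrocyte genes (1.43, adjusted p = 0.011). The neuronal gene Tubb3 passed on 58 UMIs of 1 cell. Genes of other cell types were higher too: the erythroid Alas2 and Car1, the immune Cd68, the glial Mbp and the bone gene Bglap2. DESeq2's Wald test called 0 genes of these 4 lists. The lists of Wnt antagonists and receptors (17 tested), Wnt ligands and targets (18), glutathione and amino acid transport (27), basement membrane (16), immediate early and heat shock (26) and oxidative phosphorylation (71) had 0 calls in either direction by edgeR. Their counts at an unadjusted p under 0.05 were 1, 8, 6, 4, 0 and 1 in that order, and DESeq2's Wald test called 1 gene in these lists, in the glutathione and amino acid transport list. Of the list genes that passed here, DESeq2's Wald test also called Bmp4, Fxyd6, Hey1 and Lect1. It did not call Hey2, Sox2, Krt18, Fxyd2 or Fgf9, and it gave no adjusted p for Notch3, Krt8, Cldn6, Aqp5, Car12 and Tubb3.

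These counts against Fabp7 cells rested on few cells in library 2. Of the 10 largest rises Bmp4, Fxyd6, Tdrd12, G0s2 and Apoc1 passed both by DESeq2's Wald test and without the library as a replicate block, and of the 10 largest falls Pcdh17, Kif5b, Bex4, St3gal4 and BC048546 did. Without the library as a replicate block only 7 genes were higher and 13 lower, without the Ucma sum of library 1 they were 33 and 5, without that of library 2 they were 207 and 87, and without the Fabp7 sum of library 1 they were 11 and 8. Without the mixed cells 110 were higher and 94 lower, with 61 and 45 of the calls in common.

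Against Fibin cells, which carry the supporting cell genes Fibin, Otol1 and Lfng, 221 of 10702 genes were higher (2.07%) and 93 lower (0.869%), 2.93% in either direction. Only 65 of the 93 lower genes had the same sign in both libraries, and 210 of the 221 higher genes did. The Ucma cells were higher in Fxyd6, Tdrd12, Nat8l, Map1b and Wfdc2, and lower in Igfbp7, Anxa5 and Tectb. Tdrd12 had 313 and 59 UMIs against 46 and 9 (log2 3.27, SE 0.40, adjusted p = 2.9e-09). Nat8l had 258 and 38 against 39 and 5 (3.40, SE 0.43, adjusted p = 4.5e-09). Wfdc2, a secreted protease inhibitor-like protein of epithelia, had 324 and 93 against 97 and 7 (3.08, SE 0.41). Crabp2, a retinoic acid-binding protein, had 110 and 18 against 27 and 1 (3.07, SE 0.46). Map1b, a microtubule-associated protein, reached a log2 fold change of 3.72 (SE 0.45), with 50.6% of its 174 UMIs in library 1 from 1 cell. Bmp4 rose here too, with 130 and 24 UMIs against 32 and 0 (3.17, SE 0.50, adjusted p = 4.2e-05). Vldlr (4.09), Lemd1 and Apoc1 (4.75) were also among the 10 largest rises. Tcap was at least 25.3-fold higher, its 0 UMIs in Fibin cells set at the floor of 3 counts over both libraries.

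Of 14 tested genes of the tectorial membrane, the acellular sheet above the hair cells, and like matrices 2 were lower than in Fibin cells and 0 higher (list median -1.83 against -0.03 over all genes). Tectb, which encodes beta-tectorin, had 40 and 0 UMIs against 384 and 25 (log2 -2.82, SE 0.52, adjusted p = 0.001), with 85.0% of the 40 from 1 member. Otog, the otogelin gene, had 40 and 3 against 268 and 20 (-2.17, SE 0.44, adjusted p = 5e-04). The endothelin receptor gene Ednrb (9 and 0 UMIs against 118 and 16, log2 -3.22, SE 0.66) and the binding protein gene Igfbp7 (16 and 0 against 219 and 10, -3.16, SE 0.52, adjusted p = 9.2e-06) showed the largest falls. Anxa5, annexin A5, had 346 and 21 UMIs against 2424 and 104 (-2.17, SE 0.37). Basp1, Gm10638, Ttll3, Rassf6 and Smpx had log2 fold changes from -2.84 to -2.16.

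By list, 3 of 6 tested supporting cell genes were lower than in Fibin cells, Sox2 (38 and 9 UMIs against 191 and 25, log2 -1.58, adjusted p = 0.015), Tectb and Emid1, and 0 were higher (list median -1.03 against -0.03 over all genes). The summed list went the other way, at 31300 and 31800 CPM in the members against 14600 and 28900 CPM in Fibin cells. Most of the members' sum was S100a1, at 30700 and 31500 CPM. The Notch ligand Jag1 was the only 1 of 11 Notch genes that passed (-1.39, adjusted p = 0.049). Of 20 otic transcription factors Gata2 was higher (104 and 30 UMIs against 86 and 2, log2 1.82, SE 0.43, adjusted p = 0.0049) and Sox2 lower. Of 23 genes of water and potassium handling Fxyd6 (2.74, SE 0.35, adjusted p = 6e-08) and the sodium pump subunit Atp1b1 (1.01) were higher, and the cotransporter Slc12a7 (-1.36) was lower. The growth factors Fgf1 and Fgf9 (1.52) were higher among 15 FGF genes, with 78.3% of the 46 Fgf1 UMIs of library 1 in 1 cell. The carbonic anhydrases Car13 (126 and 16 UMIs against 59 and 2, log2 2.12, adjusted p = 4.2e-04) and Car12 were higher among 15 genes of that list. Lum was the only 1 of 7 small leucine-rich proteoglycans that passed (676 and 120 against 587 and 14, 1.81, SE 0.36, adjusted p = 2.9e-04). Krt19 was the only 1 of 17 epithelial genes (1.56, adjusted p = 0.018). Of 7 tested neuronal genes 5 were higher (list median 3.79), Tubb3, Snap25, Nefl, Nefm and Stmn2, all with 0 UMIs in the members of library 2. In library 1 a single member held 96.6% of the UMIs of that list, and DESeq2's Wald test called 0 of its genes. The connexin and tight junction list had 0 of 23 called in either direction by edgeR, 5 at an unadjusted p under 0.05 and 0 by DESeq2's Wald test. Gjb2, at 846 and 1520 CPM in Fibin cells, differed by log2 0.07 (SE 0.81) and Gjb6 by -0.23 (SE 0.95).

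Of the list genes that passed against Fibin cells, DESeq2's Wald test also called Fxyd6, Car13, Lum, Tectb, Lect1 and Bmp4. It did not call Sox2, Emid1, Jag1, Gata2, Atp1b1, Slc12a7, Fgf1, Fgf9, Krt19 or Otog, and it gave no adjusted p for Car12. Without the library as a replicate block Tectb, Lum, Igfbp7 and Anxa5, which both tools called, no longer passed. Of the 10 genes just named as not called by DESeq2 only Fgf1 passed. Calls against Fibin cells fell to 71 higher and 8 lower without the replicate block and to 24 and 21 without the Fibin sum of library 1, and they were 84 and 33 without the Ucma sum of library 1 and 344 and 128 without that of library 2. Without the mixed cells 171 were higher and 132 lower, and Tectb, Jag1, Atp1b1 and Fgf1 no longer passed.

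Fibrocytes, connective tissue cells of the lateral wall that are also coupled by connexins, differed in far more genes. Of 10702 tested genes 1233 were higher (11.5%) and 957 lower (8.94%) in the Ucma cells, 20.5% in either direction. Only 960 of the 1233 had the same sign in both libraries, and 955 of the 957 did. Of 17 tested epithelial markers 14 were higher and 0 lower (list median log2 5.88 against -0.05 over all genes), among them Epcam (222 and 31 UMIs against 12 and 2, log2 6.61, SE 0.46, adjusted p = 9.3e-22), Cldn3 (6.83, SE 0.53) and Cldn9 (6.22, SE 0.44). Of 23 connexin and tight junction genes 14 were higher and 2 lower. Of 20 otic transcription factors 12 were higher and 1 lower. Isl1 had 102 and 25 UMIs against 1 and 0, a pooled ratio of 709-fold (counting interval 125 to 28200), and Gata2 had 104 and 30 against 5 and 0 (log2 7.33, SE 0.56). Emx2 (14 and 4 UMIs) had 0 UMIs in fibrocytes. Of 7 tested neuronal genes 6 were higher (list median 6.51), on a list with 96.6% of its UMIs in the members of library 1 from 1 cell.

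The secreted factor Fgf9 had 59 and 14 UMIs in the Ucma cells and 0 in fibrocytes, which puts it at least 136-fold higher. Agr3 was at least 61.4-fold and Apoa4 at least 54.0-fold higher, both also at 0 in fibrocytes. The potassium channel genes Kcnj16 (195 and 50 UMIs against 11 and 0, log2 7.08, SE 0.58) and Kcnj10 (31 and 13 against 5 and 3, 4.98, SE 0.61, adjusted p = 1.9e-08) were higher. Padi1 (7.47), Il17re, Srgap1, Nat8l (7.92) and Tdrd12 (8.52) completed the 10 largest rises. Lum was higher (6.60, SE 0.43) while Bgn, a proteoglycan of the same family, was lower (20 and 0 UMIs against 1899 and 114, -4.18, SE 0.81). Of 7 tested members of that family 1 was higher and 3 lower.

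The 10 genes with the largest falls against fibrocytes had 0 UMIs in the Ucma cells of both libraries. Adamtsl5 was at least 9.19-fold lower, and Eln (elastin), Ndufa4l2, C1qtnf6, Pou3f1, Plin4, Sptssb, Corin, Slc6a7 and Gm684 at least 5.61-fold to 7.58-fold. The Wnt target genes Axin2 (14 and 2 UMIs against 280 and 150, log2 -2.22, SE 0.49, adjusted p = 3.2e-04) and Lef1 (7 and 0 against 208 and 117, -3.03, SE 0.55) were among 8 lower and 3 higher of 18 Wnt ligands and targets (list median -1.98). The ligand Wnt7b was higher (25 and 7 UMIs against 0 and 1). Of 21 BMP and activin genes Bmp7 (4.55, SE 0.65) and Inhba (4.97, SE 0.56) were higher and 4 lower, Bmp2 and Bmp5 among them. Of 26 immediate early and heat shock genes 10 were lower and 0 higher (list median -2.37), with Atf3 at 9 and 1 UMIs against 322 and 530 (-3.63, SE 0.76, adjusted p = 0.0049). Of 6 tested chondrocyte genes 5 were higher and 1 lower (list median 2.48). Col2a1 was lower (13 and 0 UMIs against 810 and 45, -3.93, SE 0.67), and Lect1 (6.77, SE 0.44) and Col9a1 (2.28, SE 0.47) were higher. The Gla protein list around Ucma had 2 higher and 3 lower of 8, and Ggcx, the carboxylase that modifies Gla proteins, had 5 and 2 UMIs in the members. Without the Ucma sum of library 1 the calls against fibrocytes were 510 higher and 440 lower, and without the fibrocyte sum of library 1 they were 543 and 481.

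The likeness of the members of the libraries to each other lay within the range of their likeness to Fabp7 cells. Across 9288 genes with at least 100 UMIs over all sums, gate and haemoglobin genes left out, Spearman's rho was 0.752 between the Ucma sums of library 1 and library 2. It was 0.729 between Ucma cells of library 1 and Fabp7 cells of library 2, and 0.790 between Ucma cells of library 2 and Fabp7 cells of library 1. Against Fibin cells rho was 0.691 and 0.714, and against fibrocytes 0.641 and 0.548. These values describe sums of unequal depth (107940 UMIs for the Ucma cells of library 2 and 1347641 for the Fabp7 cells of library 1), genes are not independent replicates, and no p is given.

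Of the otic transcription factors, some were at or near 0 in the members. Pax2 had 0 and 3 UMIs, Pax8 had 0 in both, and Dlx5 had 0 in both. Eya1 (123 and 83.4 CPM) and Sox9 (120 and 111 CPM), which act in ear development, were read in the members. Lmx1a had 2 UMIs in library 1 and 7 in library 2, where it came from 4 of 13 members. Gata2 read 156 and 278 CPM in the members and 1.62 and 0 CPM in fibrocytes.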

How the data were processed

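The deposited values were whole-number UMI counts per gene and barcode, and the submitters' processing notes name Cell Ranger 2.1.0 and mm10. No source used here says how the authors selected barcodes. Counts were summed per library and class for 6 classes gated on named genes (12 sums, at least 5 cells each; hair cells and fibroblasts were the other 2). They were fitted with edgeR 4.0.16 (R 4.3.3, limma 3.58.1): TMM scaling, the filterByExpr filter at 10 counts, robust quasi-likelihood, and a term for class plus a replicate block for library, because all classes of a library share its suspension (residual degrees of freedom 5). Benjamini-Hochberg adjustment ran over 10702 genes with a threshold of 0.05. Genes used by a gate were not tested, but genes that vary with them across cells were, and the p-values take the gates as given. Log2 fold changes are Ucma cells minus the other class.

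Members and gene lists were chosen with earlier results of these data known. Named genes were the 10 largest changes per direction with the same sign in both libraries and at least 10 UMIs per library in the higher class, up to 4 per list by adjusted p or at 0, and the 15 largest ratios on CPM plus 10. Genes named beyond that were chosen after their values were seen. Scrublet, as in scanpy 1.11.5 and at an expected rate of 6%, marked 2 and 4 cells and no member; these stayed in. The libraries shared 2 barcodes, 1 of them a member. In simulated counts for 10147 genes, 4-fold changes were recovered at 71.0%, 67.0% and 84.0% against Fabp7 cells, Fibin cells and fibrocytes, and 2-fold changes at 7.0%, 8.0% and 20.0%, with 2.5%, 6.25% and 2.8% false calls. The simulation gave all sums the same mean profile and the same dispersion, with no library effect and no outlying cells. Only well-counted genes were changed. These rates therefore do not cover genes with few UMIs or with most UMIs from 1 cell. Gene positions are from GENCODE M21 and promoters from RefSeq. Alternatives covered DESeq2 1.42.0, scaling, filters, the member rule, the block, doublets, haemoglobin genes and leaving out sums. Python 3.11.15 was used for sums and tables. Free RNA was not corrected for. Some items are not reported here.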

Additional observations from a re-analysis of the deposited data

How the results depend on the processing

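The counts of called genes moved with the processing, and the direction of named genes mostly did not. Numbers are given as higher and lower in the Ucma cells, with 86 and 66 against Fabp7 cells, 221 and 93 against Fibin cells, and 1233 and 957 against fibrocytes as the values reported. DESeq2's Wald test gave 16 and 14 against Fabp7 cells, 49 and 10 against Fibin cells, and 478 lower against fibrocytes. The fit with no replicate block gave 7 and 13, and 71 and 8, against the first pair of classes, and it stayed within 1.5 times the reported counts against fibrocytes. With no low-count filter 144 were higher than in Fabp7 cells and 155 lower than in Fibin cells. Testing only genes with an even checksum, fewer genes by construction, gave 46 and 43, 118 and 56, and 634 and 455. A stricter cell filter (500 genes, 10% mitochondrial UMIs) gave 329 and 162 against Fabp7 cells, 208 lower against Fibin cells and 1592 lower against fibrocytes. Members with at least 2 of 5 rule genes (78 cells in library 1) gave 175 and 163, 149 lower, and 278 lower. At least 4 of 5 gave 263 lower against Fibin cells and 1446 against fibrocytes. Chosen after seeing the data, members without those with 1 Ucma UMI (23 and 6 cells left) gave 122 lower against Fabp7 cells and 228 against Fibin cells, and without those under 10 Epyc UMIs 237 lower against Fibin cells and 1469 against fibrocytes. Leaving out 1 sum at a time gave 11 to 207 higher and 5 to 87 lower, 24 to 344 and 21 to 132, and 510 to 1298 and 440 to 868. With 1 whole library left out no test could be made. The cause of these shifts was not tested. Thinning to 2000 UMIs lowered the share of members with Isl1 from 65.9% to 26.8% and from 76.9% to 38.5%, with Epcam to 46.3% and 53.8%, and with Bmp4 in library 1 to 26.8%. Among named genes Fxyd2 turned to 2.59 against Fabp7 cells with at least 2 of 5 rule genes, and Tubb3 ran from -3.83 without the Ucma sum of library 1 to 4.43 without the Fabp7 sum of library 1. Of the named genes with a value, those that kept their call against Fabp7 cells, Fibin cells and fibrocytes were 13 of 32, 15 of 36 and 43 of 50 with no replicate block, 14 of 26, 17 of 34 and 45 of 50 by DESeq2's Wald test, 6 of 32, 22 of 36 and 36 of 50 without the Ucma sum of library 1, and 28 of 31, 31 of 35 and 48 of 50 without the mixed cells.

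With 107940 UMIs in 13 cells, library 2 sets the precision: a gene at 0 there could still hold 3 counts. In simulated counts a 2-fold change was mostly missed even in well-counted genes.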
